A study of Mus musculus with 4 samples.

Results

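Tcf7, Lef1, Satb1, Bach2, Foxp1, Ets1 and Myb are transcription factor genes of naive and central T cells. They were listed by name, with earlier results of these data known. All 7 were found among the 24421 genes counted, and all 7 passed the filter on low counts, which left 16322 genes. They were measured in regulatory T cells (Tregs) that had entered a tumor-bearing mouse from its parabiotic partner, and the question was how those in omental tumors differed from those in the spleen of the same mouse. The tumor-bearing mice carried CD45.1 and had received EG7.1.15 cells into the peritoneal cavity. EG7 lines derive from the EL4 T cell lymphoma. The partners lacked CD45.1 and bore no tumor, the pairs were joined for 14 days, and the strain in the labels is B6 Foxp3-DTR/GFP, in which cells that express Foxp3 carry a green fluorescent reporter and a diphtheria toxin receptor. Omental tumor and spleen gave 2 libraries each, from mouse 2 and mouse 3, at day 14 after tumor injection, of cells gated as live, CD45.1-, CD45.2+, B220-, CD4+, CD25+ and GFP+. The sources used here give neither age nor sex of the mice.

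Some of these factors help to keep T cells in a resting, recirculating state. TCF1, the product of Tcf7, and LEF1 share a DNA-binding HMG box, bind beta-catenin or Groucho corepressors, and are high in naive, central memory and resting regulatory T cells. FOXP1 holds naive T cells in quiescence, BACH2 represses effector genes at sites that AP-1 factors also bind, and SATB1 folds chromatin during T cell development, including the opening of the Treg program in thymocytes. ETS1 is needed for T cell survival and for Foxp3 expression, and MYB acts in progenitors, in dividing cells and in effector Tregs.

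Gene totals were 6660230 and 3764508 counts for the omental tumors of mouse 2 and mouse 3, against 9989005 and 13598631 counts for their spleens. The sort markers were present in all 4 libraries. Foxp3 stood at 93.1 and 88.5 CPM (counts-per-million of the gene total of that library) in omental tumor, against 115.5 and 116 CPM in spleen, and Cd4 at 430.5 and 120 CPM against 581 and 810 CPM. Genes of other cells were present too. The summed level of 9 neutrophil markers was 183 and 1540 CPM in omental tumor, against 105 and 54.9 CPM in spleen. That of 13 macrophage and monocyte markers was 1422 and 1165 CPM against 406 and 711 CPM, and that of 10 fibroblast and mesothelial markers 214 and 19.7 CPM against 20.8 and 6.62 CPM, where Lum was at 0 in the omental and spleen libraries of mouse 3 and Krt19 at 0 in the spleen library of mouse 3. That of 9 B cell markers was 133 and 38.3 CPM against 68.5 and 56.3 CPM, and that of 10 genes of immature T or lymphoma cells 188 and 111 CPM against 218 and 209 CPM. Themis and Cd1d1 were the largest terms of this last sum in spleen. Of the 8 genes of that list tested, 5 had a positive log2 fold change and 3 a negative one (median 0.85), so the sum does not stand for each gene. Genes that follow cell handling summed to 1962 and 2438 CPM against 1025 and 181 CPM. Among all genes tested, 4 of 8 neutrophil, 2 of 12 macrophage, 1 of 6 stromal and 3 of 11 handling genes rose, and no B cell, immature T or T lineage gene passed the test, in which 1, 4 and 0 of them had an unadjusted p under 0.05. The neutrophil genes S100a9 and S100a8 stood at 1.80 and 499 and at 0.1501 and 432 CPM in omental tumor, against 9.31 and 6.03 and 6.41 and 7.65 CPM in spleen, so their calls rest on the omental library of mouse 3 (log2 fold changes of -2.47 and -5.86 without it) and were lost with mouse as a block. Col3a1, a collagen gene, was at -0.15 on the log2 scale when omental mouse 2 was left out, against 4.38 with it. Lyz2, a macrophage gene, was high in both omental libraries (286 and 312 CPM, against 7.01 and 49.6 CPM in spleen), and its log2 fold change stayed between 2.09 and 5.60 without any single library, though the call was lost without omental mouse 3 or either spleen library (adjusted p from 0.0907 to 0.614). In bulk libraries fewer cells of a type and less RNA per cell cannot be told apart.

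The windows around annotated starts of these genes were searched for the core letters that the factors and their partners bind. RefSeq gives 16 windows for 6 of the 7 genes, each from 250 bases before to 50 after a start, on GRCm38.p6, which shares its coordinates with mm10. Both strands were searched for a TCF/LEF core (CTTTGA), an ETS core (CCGGAA), a forkhead core (TGTTTAC), a MYB core (CAACTG, which is also an E-box), a RUNX core (TGTGGT) and an AP-1 and BACH core (TGAGTCA). The 5 windows shown were taken from those that hold a match, with matches in capitals. They lie at chr11:52282546-52282845 (minus strand, Tcf7), chr3:131156044-131156343 (plus strand, Lef1), chr4:32417185-32417484 (plus strand, Bach2), chr6:99266466-99266765 (minus strand, Foxp1) and chr10:21160935-21161234 (minus strand, Myb).
Tcf7: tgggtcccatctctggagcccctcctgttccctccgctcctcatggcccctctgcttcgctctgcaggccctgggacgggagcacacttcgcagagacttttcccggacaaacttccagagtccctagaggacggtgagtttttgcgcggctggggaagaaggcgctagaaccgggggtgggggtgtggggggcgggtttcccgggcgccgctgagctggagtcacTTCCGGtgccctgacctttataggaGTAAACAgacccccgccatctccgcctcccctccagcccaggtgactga
Lef1: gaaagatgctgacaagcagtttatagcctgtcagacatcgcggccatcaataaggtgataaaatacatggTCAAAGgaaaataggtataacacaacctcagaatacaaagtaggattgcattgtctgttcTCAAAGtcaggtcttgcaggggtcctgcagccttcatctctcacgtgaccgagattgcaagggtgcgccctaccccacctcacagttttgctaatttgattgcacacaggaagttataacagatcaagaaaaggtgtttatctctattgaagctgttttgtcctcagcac
Bach2: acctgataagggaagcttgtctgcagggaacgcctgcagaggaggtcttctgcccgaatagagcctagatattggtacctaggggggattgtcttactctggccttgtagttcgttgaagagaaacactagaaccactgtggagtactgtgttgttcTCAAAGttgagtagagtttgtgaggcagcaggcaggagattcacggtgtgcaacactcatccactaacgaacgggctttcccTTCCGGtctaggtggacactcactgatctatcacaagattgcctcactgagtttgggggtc
Foxp1: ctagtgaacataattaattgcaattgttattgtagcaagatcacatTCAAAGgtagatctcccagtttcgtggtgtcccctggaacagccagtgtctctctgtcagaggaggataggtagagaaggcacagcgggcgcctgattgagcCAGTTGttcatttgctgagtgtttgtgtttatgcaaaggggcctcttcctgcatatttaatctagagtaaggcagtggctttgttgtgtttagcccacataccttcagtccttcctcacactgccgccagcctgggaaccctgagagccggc
Myb: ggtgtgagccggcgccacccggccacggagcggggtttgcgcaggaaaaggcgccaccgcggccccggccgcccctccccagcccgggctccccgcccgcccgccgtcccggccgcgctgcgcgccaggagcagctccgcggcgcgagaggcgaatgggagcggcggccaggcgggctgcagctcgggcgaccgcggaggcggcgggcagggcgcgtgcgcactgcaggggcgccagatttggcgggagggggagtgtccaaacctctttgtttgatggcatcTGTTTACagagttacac

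All these starts but that of Myb lie inside the gene as GENCODE draws it. Among windows not shown, that at the outer Tcf7 start and all other Lef1 windows hold no match. A Satb1 window and another Foxp1 window, also not shown, each hold a MYB core alone. The Lef1 window shown holds the TCF/LEF core at 180 and at 120 bases before the start. The Foxp1 window holds it 204 bases before its start, with a MYB core 102 bases before, and the Bach2 window holds it at 93 bases, with an ETS core 11 bases before the start. The Tcf7 window has an ETS core 24 bases before and a forkhead core 1 base after its start, and the Myb window has a forkhead core 33 bases after. The TCF/LEF core occurred in 3 of the 16 windows and in 16.0% of all 32851 windows of this length. The ETS core occurred in 2 of 16 and in 14.9%, the MYB core in 3 of 16 and in 13.7%, and the forkhead core in 2 of 16 and in 3.65%. The RUNX and AP-1 cores occurred in none of the 16 and in 16.8% and 5.20% of all windows. These are matches of letters in windows whose use in Tregs was not measured here.

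Of the 7 factors, 6 stood lower in Tregs of omental tumors than in Tregs of the spleen by their fitted log2 fold change, and Myb stood higher. Lef1 and Foxp1 were furthest down, at 13.9% to 26.0% of their spleen level in each mouse. None of the 7 passed an adjusted p of 0.05 in edgeR's quasi-likelihood test, in which 1.32% of all genes were called (215, of which 178 were higher and 37 lower). With upper-quartile factors that split was 188 higher and 13 lower. Lef1, Bach2 and Foxp1 had an unadjusted p under 0.05 and a negative fold change, as did 4.85% of all genes. In 5 of the 7 both omental libraries lay below both spleen libraries, as in 19.0% of all genes, and in Myb both lay above, as in 21.6%. The median log2 fold change of the 7 was -1.69, against 0.11 over all genes tested and -1.15 over 15 T lineage genes. DESeq2 called 2 of the 7, Lef1 and Foxp1, and 2.88% of the 12841 genes to which it gave an adjusted p. By limma-voom Foxp1 was called, as were 0.999% of all genes.

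**Figure D1:**
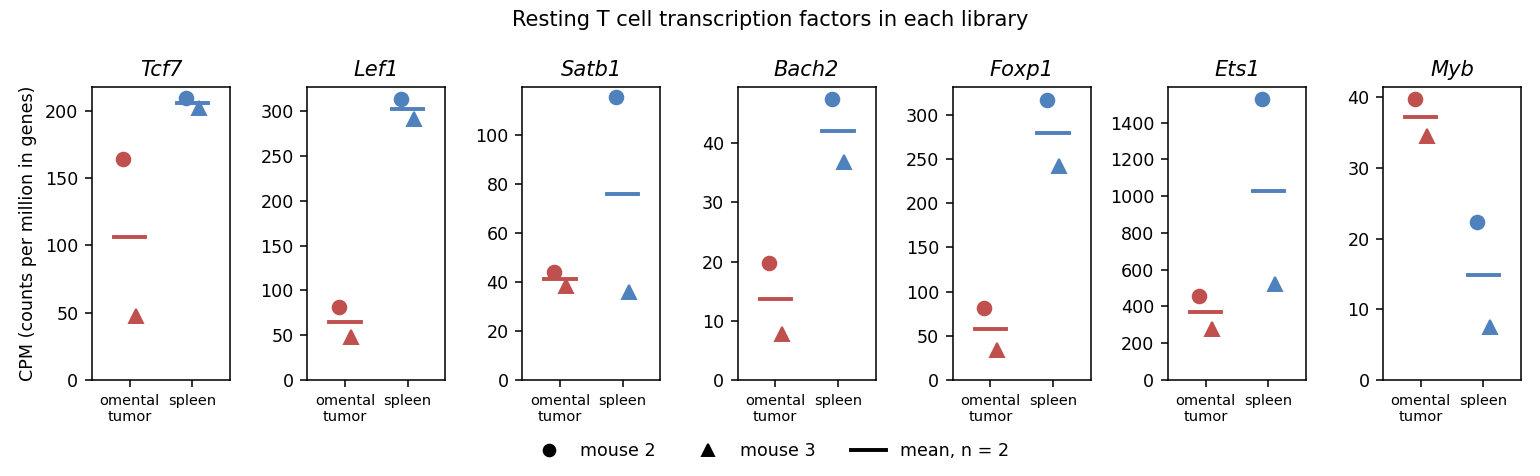
Level of each of the 7 factors in CPM (counts-per-million of the library's gene total, vertical axes from 0) in omental tumor (red, left) and spleen (blue, right). Circles are mouse 2, triangles mouse 3 and bars the mean of 2 libraries. Lef1 and Foxp1 are at most 81.5 CPM in omental tumor and at least 242 CPM in spleen, the groups overlap for Satb1, and Myb is higher in omental tumor.

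Lef1 and Tcf7, the HMG box pair, are given first. Lef1 (chromosome 3, 131110471 to 131224356) stood at 81.5 and 48.1 CPM in the omental tumors of mouse 2 and mouse 3, against 313 and 291 CPM in their spleens. The groups were far apart, and both mice showed a similar drop, to 26.0% and 16.5% of the spleen level. The mean level of Lef1 was 64.8 ± 23.7 CPM in the tumors, against 302 ± 15.6 CPM in the spleens (SD, n = 2 each), and edgeR gave a log2 fold change of -2.51 (SE 0.86) at an adjusted p of 0.154. Tcf7 (chromosome 11, 52252371 to 52283014) stood at 165 and 47.5 CPM in omental tumor, against 209.5 and 202 CPM in spleen. The spleen libraries were close to each other while the omental libraries differed more than 3-fold, so that mouse 2 kept 78.5% of its spleen level and mouse 3 kept 23.5%. For Tcf7 edgeR gave -1.27 on the log2 scale (SE 0.81) at an adjusted p of 0.688. Genes of the T lineage were mixed in mouse 3: Cd4 stood at 14.8% and Cd3e at 31.2% of the spleen level, while Cd2, Cd3d, Cd3g and Thy1 stood at 110.04%, 148%, 128% and 114%, the 4 of 15 such genes that were higher in omental tumor. In mouse 2, 1 of the 15 was higher. The part of that library's makeup in the Tcf7 value was not tested.

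Foxp1, the quiescence factor (chromosome 6, 98925338 to 99522721), stood at 81.2 and 33.7 CPM in omental tumor, against 317 and 242 CPM in spleen. It kept 25.6% and 13.9% of the spleen level in mouse 2 and mouse 3, and its log2 fold change was -2.56 (SE 0.85, adjusted p = 0.132 by edgeR). Bach2, the repressor of effector genes (chromosome 4, 32238804 to 32586108), stood at 19.7 and 7.70 CPM in omental tumor, against 47.5 and 36.8 CPM in spleen. The groups did not overlap, and the drop was to 41.5% and 20.95% of the spleen level, and edgeR put it at -1.90 on the log2 scale (SE 0.80) with an adjusted p of 0.372. The lower omental value rests on 29 counts, whose exact Poisson interval at 95% runs from 5.16 to 11.1 CPM and covers counting error only. Bach2os, a gene that overlaps Bach2 on the opposite strand, was read 9 and 2 times in omental libraries, against 15 and 14 times in spleen libraries. The library kits do not mark strand, so reads of the pair cannot be told apart where they overlap.

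Satb1 and Ets1 were uneven in spleen. Satb1, the chromatin organizer (chromosome 17, 51736187 to 51833290), stood at 44.1 and 38.5 CPM in omental tumor, against 116 and 36.0 CPM in spleen. The omental libraries were close together and lay between the spleen libraries, so mouse 2 was at 38.2% and mouse 3 at 107% of its spleen level (log2 fold change -1.07, SE 0.77, adjusted p = 0.735 by edgeR). Ets1 (chromosome 9, 32636221 to 32757820) stood at 457 and 278 CPM in omental tumor, against 1529 and 523 CPM in spleen. Both omental libraries were lower than both spleen libraries, by a narrow gap between the omental library of mouse 2 and the spleen library of mouse 3. The fitted change of Ets1 on the log2 scale was -1.69 (SE 0.90) at an adjusted p of 0.582, with 29.9% of the spleen level kept in mouse 2 and 53.1% in mouse 3. Satb1 and Ets1 were thus both highest in the spleen library of mouse 2. In it 10 of 11 handling genes stood above their level in the spleen library of mouse 3. The ratios ran from that of Fos (48.5 against 47.1 CPM) to that of Jun (64.6 against 5.15 CPM). The share of all genes higher there was not counted, and TMM factors of 1.03 and 0.806 place a typical gene higher in mouse 2 too. The summed handling level was higher still in both omental libraries, but single genes differed. Junb stood at 1301 and 1029 CPM there and Jun at 4.20 and 42.8 CPM, against 597 and 64.6 CPM in the spleen library of mouse 2. The part of handling in the Satb1 and Ets1 values was not tested.

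Myb went the other way. Myb (chromosome 10, 21124935 to 21160984) stood at 39.8 and 34.5 CPM in omental tumor, against 22.3 and 7.501 CPM in spleen, and both omental libraries were above both spleen libraries. Omental Tregs had 178% of the spleen level in mouse 2 and 460% in mouse 3 (log2 fold change 1.12, SE 0.79, adjusted p = 0.725 by edgeR). These values rest on 265 and 130 reads from omental tumor, against 223 and 102 reads from spleen. Their intervals from counting error do not meet between tissues (28.9 CPM as the lowest omental bound, 25.5 CPM as the highest spleen bound). Such intervals hold no spread between mice. Its relative Mybl2, which acts in dividing cells, stood at 21.2 and 26.0 CPM against 17.5 and 4.49 CPM, and the Myb to Mybl2 count ratio was 1.88 and 1.33 in omental tumor against 1.27 and 1.67 in spleen, so these ratios overlapped. Myb is also a gene of immature T cells. Of 8 such genes tested, Dntt, which encodes terminal transferase, stood at 25.1 and 22.3 CPM against 7.71 and 3.09 CPM and Ptcra, the pre-T cell receptor chain, at 4.95 and 15.7 CPM against 1.80 and 1.40 CPM. Both were chosen after their values were seen. Themis and Cd1d1, the most abundant of that list, were lower in omental tumor (49.4 and 18.9 CPM against 82.6 and 88.8 CPM, and 30.6 and 15.1 CPM against 70.6 and 80.4 CPM). Their part in the Myb values was not tested.

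**Figure D2:**
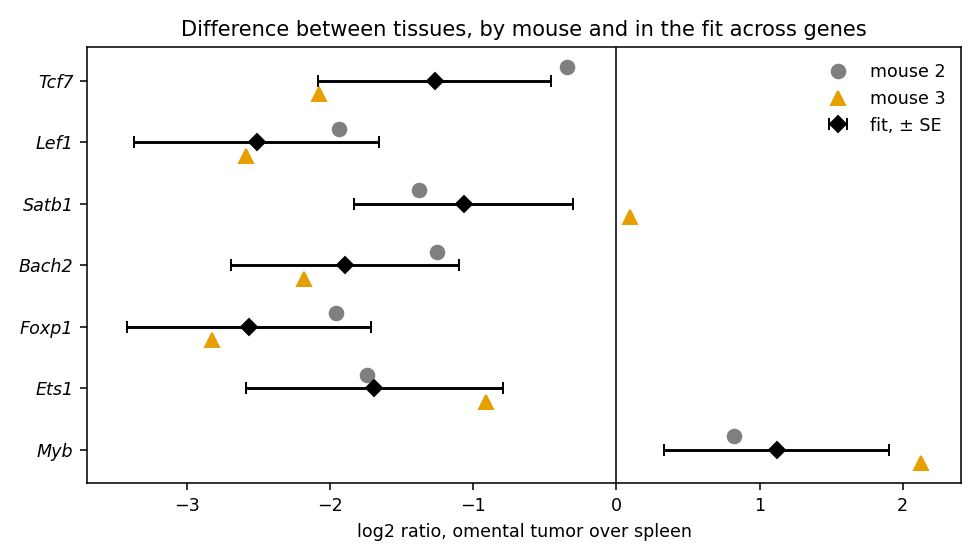
Log2 ratio of omental tumor over spleen (horizontal axis) for each factor within mouse 2 (grey circles) and mouse 3 (orange triangles), on CPM with 0.5 added, and the fitted log2 fold change with its SE (black diamonds and bars). Lef1, Foxp1, Bach2, Ets1 and Tcf7 lie left of 0 in both mice, Satb1 in mouse 2 alone (-1.38 against 0.10), and Myb right of 0 in both.

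Within the mice, 5 of the 7 factors were lower in omental tumor in both, as were 3981 of all 16322 genes tested. The drop was larger in mouse 3 than in mouse 2 for Tcf7 (log2 ratio -2.08 against -0.35), Lef1 (-2.59 against -1.94), Bach2 (-2.18 against -1.25) and Foxp1 (-2.83 against -1.96). It was smaller in mouse 3 for Ets1 (-0.91 against -1.74). Over all genes the median of these ratios was 0.41 in mouse 3 and 0.22 in mouse 2. Over the T lineage list it was -1.58 in mouse 3 and -0.50 in mouse 2. With summed T lineage counts as the library size in place of the usual factors, the log2 fold changes were -1.60 for Lef1, -1.69 for Foxp1, -1.02 for Bach2, -0.92 for Ets1, -0.37 for Tcf7, -0.30 for Satb1 and 1.90 for Myb. No sign turned under this scaling, which moved the median gene up by 0.87, and Lef1, Foxp1 and Myb had an unadjusted p under 0.05 in it.

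Count ratios between genes of the same library need no scaling. They are given as descriptions, and the pairs were chosen after the values were seen. The Lef1 to Tcf7 ratio was 0.495 and 1.01 in omental tumor, against 1.496 and 1.44 in spleen. The Foxp1 to Tcf7 ratio was 0.494 and 0.709 against 1.51 and 1.20. Tcf7 therefore kept more of its level than Lef1 or Foxp1 in both mice. The Myb to Lef1 ratio was 0.488 and 0.718 in omental tumor, against 0.0712 and 0.0257 in spleen. Against Cd3e, a chain of the T cell receptor complex, the Lef1 ratio was 0.158 and 0.1498 against 0.382 and 0.283, and the Foxp1 ratio 0.158 and 0.105 against 0.386 and 0.236. The groups did not overlap in either, nor with the chains Cd3d or Cd3g in place of Cd3e. Ratios to Cd247, a further chain that was counted, were not taken. The Tcf7 to Cd3e ratio did overlap, at 0.320 and 0.148 in omental tumor against 0.255 and 0.197 in spleen, as did those of Bach2 (0.0382 and 0.0240 against 0.0578 and 0.0358), Ets1 (0.889 and 0.866 against 1.86 and 0.509) and Satb1 (0.0858 and 0.120 against 0.141 and 0.0350). The Myb to Cd3e ratio was 0.0773 and 0.108 in omental tumor against 0.0272 and 0.00730 in spleen. The chain matters for Bach2 and Myb. With Cd3d the Bach2 ratio did not overlap (0.0514 and 0.00804 in omental tumor against 0.0954 and 0.0570 in spleen) and with Cd3g it did (0.0430 and 0.00667 against 0.0734 and 0.0407). The Myb ratio overlapped with Cd3d (0.104 and 0.0361 against 0.0449 and 0.0116) and with Cd3g (0.0869 and 0.0299 against 0.0345 and 0.00831).

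**Figure D3:**
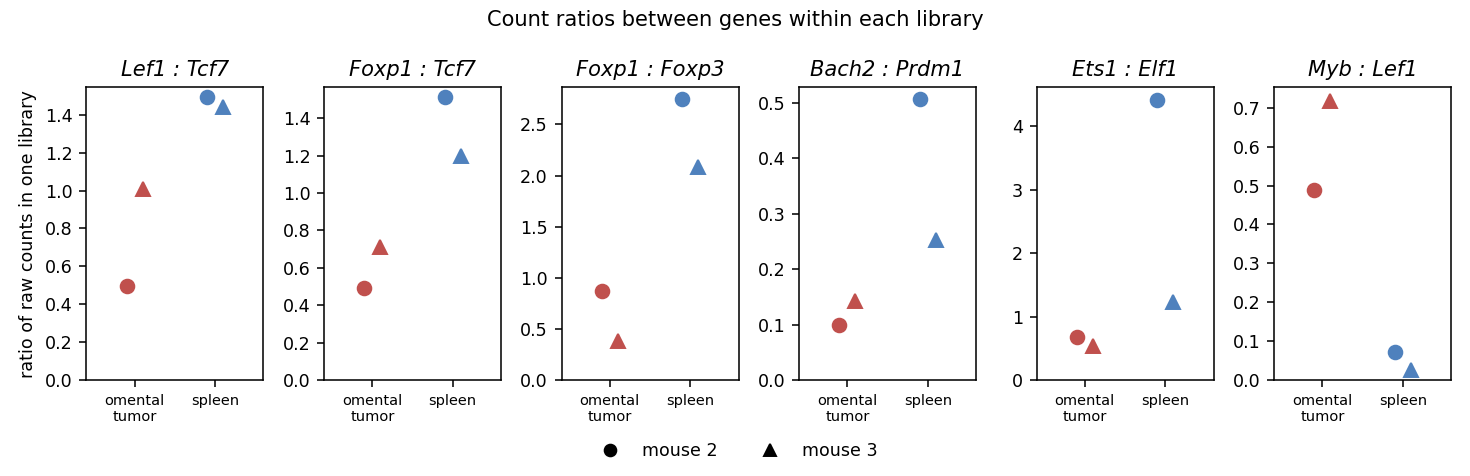
Ratio of raw counts of 2 genes within each library (vertical axes from 0), for 6 gene pairs, in omental tumor (red, left) and spleen (blue, right). Circles are mouse 2 and triangles mouse 3. The Lef1 to Tcf7 ratio is at most 1.01 in omental tumor and at least 1.44 in spleen, and the Myb to Lef1 ratio is at least 0.488 in omental tumor and at most 0.0712 in spleen.

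Levels of different genes were compared per length, as CPM per kilobase of merged exons in GENCODE vM21. Tcf7 and Ets1 led in every library, with 62.7 and 18.1 for Tcf7 and 54.0 and 32.8 for Ets1 in omental tumor, against 79.8 and 77.1 and 180.4 and 61.7 in spleen. Lef1 followed at 9.28 and 5.47 in omental tumor against 35.7 and 33.2 in spleen. Foxp1 came next in spleen, at 23.1 and 17.6, and stood at 5.91 and 2.45 in omental tumor. The order below changed between tissues. Myb ranked 5 of 7 in the omental library of mouse 2 and 4 of 7 in that of mouse 3 (4.45 and 3.87), and the last of the 7 in both spleen libraries (2.50 and 0.840). Bach2 was last in both omental libraries (1.98 and 0.775, against 4.77 and 3.70 in spleen), and Satb1 stood at 2.32 and 2.02 against 6.07 and 1.89. Neighbours whose libraries overlapped were Tcf7 and Ets1 in both tissues, Lef1 and Foxp1 as well as Foxp1 and Myb in omental tumor, and Satb1 with both Bach2 and Myb in spleen.

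Relatives of the 7 in their own families were spread to both sides of 0. Of 20 TCF/LEF, SATB, BACH, FOXP, ETS and MYB relatives tested, 9 were above and 11 below 0 on the log2 scale (median -0.07), and 0 were called by edgeR (1 with an unadjusted p under 0.05). Ets2, an ETS factor induced by growth signals, stood at 89.5 and 81.8 CPM in omental tumor against 46.7 and 6.03 CPM in spleen (log2 fold change 1.56, adjusted p = 0.536). The ETS factors Elf4 (39.9 and 19.7 against 78.3 and 49.6 CPM), Fli1 (201 and 73.6 against 217 and 324 CPM) and Elf2 (51.5 and 34.5 against 80.99 and 73.4 CPM) stood lower, with log2 fold changes of -1.36, -1.32 and -1.13. The Ets1 to Elf1 count ratio was 0.683 and 0.539 in omental tumor against 4.42 and 1.22 in spleen, where Elf1 is another ETS factor of lymphocytes, and the Ets1 to Fli1 ratio was 2.28 and 3.78 against 7.06 and 1.61, with overlap. The Foxp1 to Foxp3 ratio was 0.873 and 0.381 against 2.75 and 2.09, without overlap. Tcf7l2, the TCF factor of gut epithelium, stood at 7.21 and 4.78 CPM against 5.91 and 4.12 CPM, and was chosen after its values were seen.

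No partner or rival of the factors passed the test. Of 13 TCF/LEF partners and corepressors tested, 11 were lower in omental tumor by their fitted change, the median being -0.45 and 0 called by edgeR (2 with an unadjusted p under 0.05). Axin2, a target and brake of beta-catenin signalling, stood at 3.60 and 1.59 CPM in omental tumor against 8.81 and 10.4 CPM in spleen (-2.17, adjusted p = 0.521). Pygo2 and Bcl9l, which link beta-catenin to transcription, stood at 10.96 and 6.38 against 60.6 and 19.1 CPM (-2.40, adjusted p = 0.160) and at 2.85 and 2.39 against 7.31 and 7.79 CPM (-1.81). The kinase gene Gsk3b differed between the mice, at 34.1 and 111 CPM against 34.1 and 22.7 CPM. Of 9 partners and rivals of BACH2, 6 were positive, with a median of 0.04 and 0 called (2 with an unadjusted p under 0.05). Among these AP-1 genes Fos stood at 315 and 255 against 48.5 and 47.1 CPM (2.29, adjusted p = 0.222), Junb at 1301 and 1029 against 597 and 83.9 CPM, Jund at 4.65 and 65.9 against 5.71 and 3.97 CPM and Jun at 4.20 and 42.8 against 64.6 and 5.15 CPM. The ratio of Bach2 to Prdm1, the effector regulator that BACH2 represses, was 0.0996 and 0.142 in omental tumor against 0.508 and 0.253 in spleen. Prdm1 itself differed between the mice, at 197 and 54.2 CPM in omental tumor against 93.4 and 146 CPM in spleen (log2 fold change -0.28). Of 9 partners of ETS1, MYB and SATB1, 6 were negative, with a median of -0.56 and 0 called (1 with an unadjusted p under 0.05). Runx2 (20.6 and 44.6 against 8.91 and 5.44 CPM) was higher, and the chromatin genes Chd4, Ep300 and Kmt2a had log2 fold changes of -1.26, -1.08 and -0.97.

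**Figure D4:**
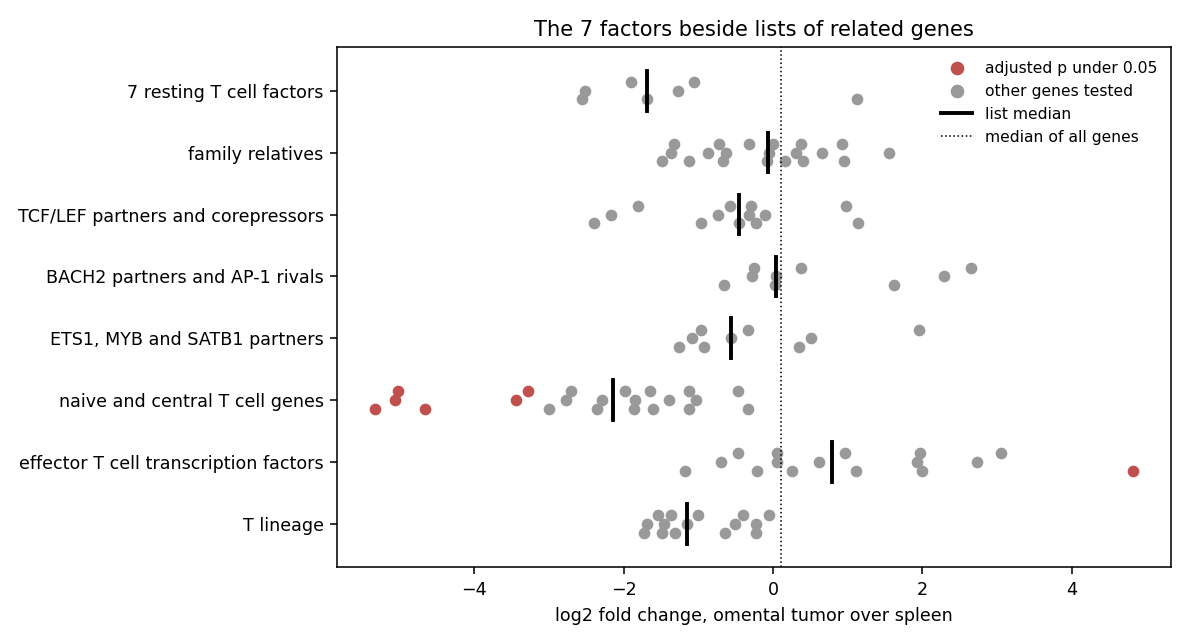
Log2 fold change of omental tumor over spleen (horizontal axis) for every tested gene of 8 lists, 1 point per gene, with the list median (black bar) and the median of all genes (dotted line, 0.11). Red points passed an adjusted p of 0.05. The 7 factors have a median of -1.69, between that of the naive and central T cell genes (-2.14) and that of the T lineage genes (-1.15).

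Other listed genes of naive and central T cells were lower as well. All 22 tested were below 0 on the log2 scale (median -2.14), and 6 fell while none rose in edgeR. Id3, an inhibitor of E proteins, stood at 4.50 and 3.19 CPM in omental tumor against 137 and 121 CPM in spleen, the receptor gene Gpr83 at 14.4 and 2.66 against 243 and 212 CPM, and Nsg2, a vesicle protein gene, at 6.16 and 0.797 against 109 and 87.1 CPM. These 3 stayed under 0.05 without any single library (highest adjusted p 0.0187). Igfbp4, Bcl2 and S1pr1 were the others called. Bcl2 and S1pr1 missed the threshold when omental mouse 3 or either spleen library was left out, at log2 fold changes from -3.46 to -3.22 for Bcl2 and from -3.55 to -2.70 for S1pr1, against -3.44 and -3.28 with all 4 libraries. Igfbp4 missed it without the spleen library of mouse 2 (-3.11 against -4.66, adjusted p = 0.580), and with library totals alone Id3 was the single gene called. With T lineage counts as library size, and with a minimum count of 50, 0 of the 22 were called. DESeq2 called 10 and the fit with mouse as a block 8, Il6ra and Trib2 besides the 6. The list was chosen with such results known, so its direction is no independent support. Effector T cell factors had a median of 0.79 over 16 genes, of which 12 were positive and 1, Nfil3, rose (16.97 and 116 against 0.901 and 2.79 CPM, log2 fold change 4.82, adjusted p = 3.42e-05 by edgeR). Nfil3 was not called with library totals alone, with T lineage counts as library size or with a minimum count of 50. Leaving out omental mouse 3 put Nfil3 at 2.66 on the log2 scale (adjusted p = 0.936), and without the spleen library of mouse 2 its adjusted p was 0.372. Bhlhe40, Id2 and Zeb2 stood at 1158 and 605 against 51.2 and 113 CPM, at 694 and 1960 against 108 and 215 CPM, and at 33.3 and 41.2 against 8.91 and 6.99 CPM, with adjusted p of 0.0611, 0.154 and 0.363.

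Profiles over the 4 libraries were compared as log2(CPM + 1), centred on each gene's mean, by Euclidean distance. Lef1 and Foxp1 were the closest pair of the 7 (0.42), followed by Tcf7 and Bach2 (0.63), and Foxp1 and Myb were the farthest apart (3.96). Satb1 was nearest to Ets1 (0.79). Among 5740 other genes with a mean of at least 32 CPM, the 5 nearest to the mean profile of the 7 factors were Pim2, Ppp2r5d, Elf4, Kdm3b and Atp8b2, at distances from 0.06 to 0.17. The 7 factors themselves lay farther from that mean, from 0.57 for Ets1 to 2.67 for Myb. Nearness to the mean is thus not nearness to any single factor. Pim2, a survival kinase gene, stood at 27.0 and 13.5 CPM in omental tumor against 58.4 and 32.2 CPM in spleen, and Ppp2r5d, a phosphatase subunit gene, at 48.2 and 26.8 against 113 and 61.5 CPM. None of these 5 passed the test (log2 fold changes from -1.52 to -1.36). Over 4 libraries many genes can share a profile, so this is a description of likeness in level alone.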

How the data were processed

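RNA-seq was measured in 4 libraries of sorted Tregs, 2 from omental tumor and 2 from spleen. Each library has a file, deposited by the authors, of unnormalized read counts by gene symbol. Per the labels, cDNA came from the SMART-seq v4 kit and libraries from Nextera XT tagmentation, neither of which marks strand. The tools named, per the submitters' processing notes, are HTSeq, SAMtools, TopHat2 and Trim Galore, and the build is mm10. Of their versions, the annotation and the strand setting, none is given in the sources used here. The 5 HTSeq summary entries of each file, which name no gene, were left out: they took 82.9% and 77.8% of reads for omental tumor, against 75.1% and 54.0% for spleen. Reads outside annotated features were 48.9% and 27.3% in the omental tumors of mouse 2 and mouse 3, against 44.2% and 24.8% in their spleens. Alignments that were not unique were 33.5% and 49.9%, against 30.2% and 28.0%.

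Levels are CPM, counts-per-million of the library's gene total, as the choice of members asked. In R 4.3.3, edgeR 4.0.16 kept genes with filterByExpr at a minimum count of 10, scaled libraries by TMM factors (1.15 and 1.05 for omental tumor, 1.03 and 0.806 for spleen) and fitted tissue alone with estimateDisp, glmQLFit and glmQLFTest at default settings, with Benjamini-Hochberg adjustment over all 16322 genes tested. SE is the absolute log2 fold change over the square root of F. The prior degrees of freedom were infinite, so SE and p do not measure a gene's own spread between mice. The design leaves 2 residual degrees of freedom, but with this prior the p-values are not those of a test on 2 degrees of freedom. TMM places fold changes 0.26 lower than library totals do, as the median over genes. The fit was tested on simulated data. The members and lists were chosen with earlier results of these data known.

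The mouse number marks the same animal in both tissues and so pairs the samples. Between the libraries of a mouse, deviations from the mean of each tissue had a correlation of 0.201. The genes open to naming were the 7 factors, the called genes and the 4 smallest p-values of each list of related genes, the 2 most abundant genes of each list of other cells, and the 5 genes of nearest profile. Outside this rule, Mybl2, Elf1, Prdm1, Foxp3, the T lineage genes other than Lck and Cd2, Dntt, Ptcra and Tcf7l2 were chosen after their values were seen. Alternatives were 13 planned settings (RLE and upper-quartile factors, library totals, T lineage counts as library size, a minimum count of 50 or no filter, limma-voom with limma 3.58.1, DESeq2 1.42.0, the replicate block and each library left out), and the newer form of glmQLFit, chosen after seeing the data. Promoter windows are from RefSeq, and gene positions and exonic lengths from GENCODE vM21 on mm10.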

Additional observations from a re-analysis of the deposited data

How the results depend on the processing

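The 7 factors kept the direction of their fold change in all 14 alternatives. DESeq2 called 2 of them, Foxp1 (log2 fold change -2.51, adjusted p = 0.00933) and Lef1 (-2.44, adjusted p = 0.0107), and limma-voom called 1, Foxp1 (-2.66, adjusted p = 0.0400), among 163 genes in all. The other 12 alternatives called 0, with 1 to 4 factors at an unadjusted p under 0.05. Over the alternatives that leave out 1 library each, the log2 fold change ran from -2.35 to -0.76 for Tcf7, from -2.88 to -2.19 for Lef1, from -1.33 to -0.31 for Satb1, from -2.66 to -1.51 for Bach2, from -3.26 to -2.19 for Foxp1, from -2.03 to -1.03 for Ets1 and from 0.88 to 1.80 for Myb. Calls over all genes depended on the settings, from 215 to 26 with library totals alone, 0 with T lineage counts as library size (1619 genes at an unadjusted p under 0.05), 0 with a minimum count of 50 (1076), 370 with DESeq2 and 44 to 606 without 1 library, and the cause was not tested. The newer form of glmQLFit gave 233. Against TMM factors the median gene moved up by 0.12 with RLE factors, 0.47 with upper-quartile factors, 0.26 with library totals and 0.87 with T lineage counts. A tissue left with 1 library is assumed to vary like the other. With the replicate block, which pairs the tissues of a mouse, 308 genes were called and no call of the 7 factors changed. Both omental libraries are the shallower ones, and Bach2, at 29 counts in 1 of them, is the factor that depth limits most.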
